A study of Homo sapiens with 26 samples.

Results

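The genes described here are 10 listed genes of NF-κB feedback and inflammatory signalling, taken by name from the 63086 genes of the count tables: NFKBIA, NFKBIZ, TNFAIP3, RELB, BIRC3, LIF, CXCL8, CXCL1, CXCL2 and CXCL3. Each was matched to its Ensembl identifier with the version removed. All 10 genes were found, and none was below the level at which the tests could be run, although CXCL1, CXCL2 and CXCL3 had medians of 28, 22 and 20.5 counts per library.

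RNA was measured by poly(A) sequencing in HCT116 cells, a human colorectal carcinoma line that makes no IGF2BP1 of its own. It was extracted from clarified lysate, the input of the study's immunoprecipitation. Levels and changes below are therefore those of RNA that stayed in solution after centrifugation. Whether arsenite altered the share of an RNA left in the pellet was not tested. Every engineered cell population carried the Tet-OsTIR1-PURO cassette, lacked IGF2BP2 and IGF2BP3, and expressed an mCherry fusion of the RNA-binding protein IGF2BP1 from a lentiviral transgene under the human PGK promoter. The fusion was wild type (WT), S181E, Y396E or RQ. S181E and Y396E put a glutamate, as a mimic of phosphorylation, in linker 1 and linker 2 respectively, and RQ replaces arginines of linker 1 with glutamine. The populations were gated by mCherry fluorescence and were not single clones, whereas the knockout cells they were made from came from single-cell clones. Each population received 500 µM sodium arsenite for 2 h, an oxidative stress, or PBS in the control arm. The 8 groups thus held 3 libraries each, from separately plated dishes. Each construct was carried by 1 population, so an effect of the construct cannot be told apart from a difference between populations. Parental cells without these changes contributed 1 control and 1 arsenite library, which are given as values without a test.

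NF-κB is a family of transcription factors held in the cytoplasm by inhibitor proteins. When the IκB kinase complex marks these inhibitors for destruction, NF-κB enters the nucleus and switches on, among many others, the genes for its own inhibitors, so that the signal ends itself. NFKBIA encodes IκBα, the main cytoplasmic inhibitor. TNFAIP3 encodes A20, a ubiquitin-editing enzyme that stops signalling upstream of the kinase. NFKBIZ encodes IκBζ, a nuclear family member that cooperates with NF-κB on secondary targets. RELB encodes a subunit of the noncanonical pathway and BIRC3 encodes the ubiquitin ligase cIAP2. The ligands are LIF, a cytokine of the IL-6 family, and the neutrophil-attracting chemokines CXCL8, CXCL1, CXCL2 and CXCL3. Several of these mRNAs are short-lived.

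Libraries held between 22508145 and 50834401 counts. One library stood apart: Y396E arsenite replicate 3 had counts in 13897 genes, against at least 20850 in each of the other 23 engineered libraries. Of 1030 genes with a mean of 20 to 100 counts in its sister libraries, 436 (42.3%) were at 0 there, and no such gene was at 0 in any of the other 23. CXCL2 and CXCL3 were among the genes at 0, so results that rest on this library are given with and without it. The colon epithelial markers EPCAM, KRT8, KRT18, CDH1 and CDX2 were present in all libraries, with EPCAM between 309 and 492 CPM (counts over the TMM-scaled total of the tested genes, on a common scale). KRT20 reached only 3.24 CPM and VIL1 0.228 CPM. Of markers of other cells that make these chemokines, PTPRC, CD3E, COL1A2, DCN and CDH5 had medians of 0, and their summed list of 10 genes lay between 6.70 and 12.9 CPM in every group, mostly COL1A1. In bulk RNA, fewer cells of a type and less RNA per cell cannot be told apart.

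The promoters are shown first because most of these genes share a recognisable NF-κB binding motif close to the start site. RefSeq promoter sequences (GRCh38.p14, 250 bases before to 50 after the start site) were held for 8 of the 10 genes, in 9 promoters. RELB and LIF had none. The letters searched were GGNATTTCC on both strands, chosen after these promoters had been read, and they occurred in 8 of the 9 promoters. The same letters occurred in 505 of 35116 promoters (1.44%). Each sequence below runs 5′ to 3′ on the strand of its gene, with the motif in capitals. In NFKBIA, TNFAIP3 and BIRC3 the capitals are the reverse complement of the letters searched. A match is a description of the sequence and not evidence of binding in these cells.
NFKBIA: tgactggcttGGAAATTCCccgagcctga
NFKBIZ: ttttggtctgGGAATTTCCagtgtgcaga
TNFAIP3: aaagtcccgtGGAAATCCCcgggcctaca
BIRC3: tttgggtcatGGAAATCCCcgagtgggtt
CXCL8: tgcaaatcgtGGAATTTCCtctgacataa
CXCL1: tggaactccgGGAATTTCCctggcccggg
CXCL2: tggagctccgGGAATTTCCctggcccggg
CXCL3: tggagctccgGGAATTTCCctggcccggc

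The motif began 91 bases before the start site in CXCL8, 78 in CXCL1 and CXCL3, and 77 in CXCL2. It began 81 bases before the start site in NFKBIA, 55 in TNFAIP3, 199 in BIRC3 and 222 in one of the NFKBIZ promoters. The CXCL windows lay at chr4:73740468-73740496 (plus strand, CXCL8), chr4:73869305-73869333 (plus strand, CXCL1), chr4:74099254-74099282 (minus strand, CXCL2) and chr4:74038749-74038777 (minus strand, CXCL3). The NFKBIA window lay at chr14:35404812-35404840 (minus strand), and the NFKBIZ window at chr3:101827758-101827786 (plus strand). The TNFAIP3 window lay at chr6:137867194-137867222 and the BIRC3 window at chr11:102317275-102317303, both on the plus strand. The genes themselves lie on chromosomes 14 (NFKBIA), 3 (NFKBIZ), 6 (TNFAIP3), 19 (RELB, 45001461 to 45038192), 11 (BIRC3), 22 (LIF, 30240453 to 30246759) and 4 (the chemokines) of hg38. CXCL1, CXCL2 and CXCL3 are close copies of each other: 8.84% of the 100-base windows of the CXCL1 transcript, 12.1% of CXCL2 and 1.82% of CXCL3 occurred with at most 2 mismatches in another chemokine of this list, against 0% of CXCL8. The transcripts searched held 1641 bases for CXCL3 and 2018 for CXCL8, against 1075 and 1968 exon bases counted. For these genes the shares are therefore not those of the counted exons. Counts of CXCL1, CXCL2 and CXCL3 are uncertain, since reads that map equally well to several copies may not have been counted.

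Levels of different genes were compared per length, as RPKM (CPM per kilobase of exon). Averaged over the 12 control libraries, LIF was highest at 87.3 RPKM, followed by NFKBIA at 16.2 and RELB at 16.05. CXCL8 (1.08 RPKM), TNFAIP3 (0.973), BIRC3 (0.897), CXCL1 (0.666), CXCL2 (0.561), CXCL3 (0.477) and NFKBIZ (0.470) formed a low group. In the 12 arsenite libraries LIF stood at 44.3 RPKM, NFKBIA at 21.0, RELB at 9.03, NFKBIZ at 5.55 and TNFAIP3 at 3.19, and the remaining genes lay between 0.524 and 1.14.

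**Figure D1:**
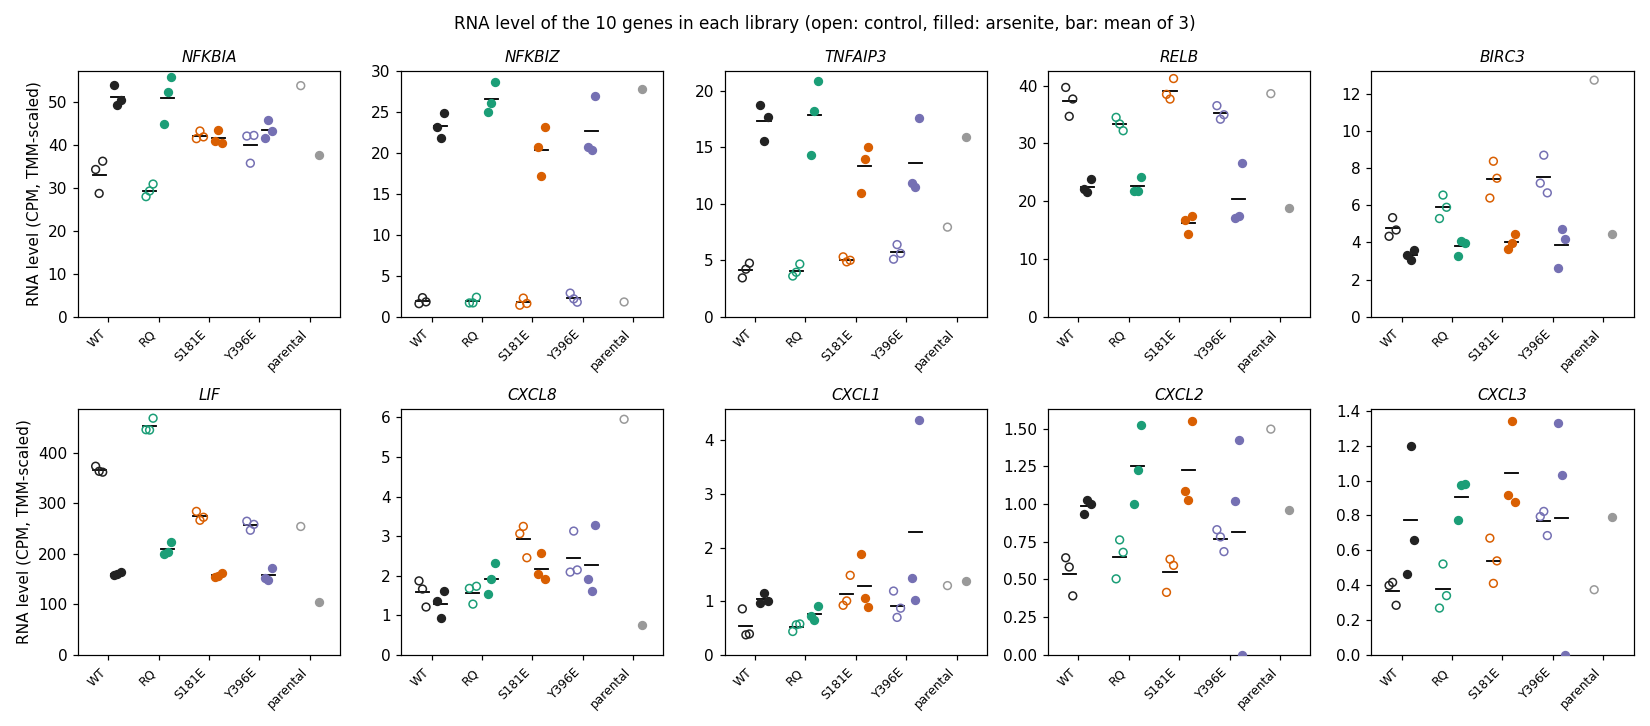
RNA level of each gene in every library, in CPM on TMM-scaled totals on linear axes that start at 0, for the 4 engineered populations and the parental cells. Open points are control libraries, filled points are arsenite libraries and bars are means of 3. NFKBIZ rose from at most 2.89 to at least 17.1 CPM, LIF fell in every population, and CXCL2 and CXCL3 reach 0 in 1 Y396E arsenite library.

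Tests were edgeR's quasi-likelihood tests with Benjamini-Hochberg adjustment over all tested genes. Called here means an adjusted p under 0.05 together with more than a 1.2-fold change. NFKBIA, NFKBIZ, TNFAIP3, LIF and RELB passed the filter of the study, more than 10 CPM in at least 12 of the 24 engineered libraries, and were tested among 9099 genes. NFKBIZ and TNFAIP3 did so only through the arsenite libraries, 12 of which were over 10 CPM against 0 of the 12 control libraries, so these genes had to differ and their presence among the called genes supports nothing by itself. BIRC3 and the 4 chemokines did not pass and were tested among 12934 genes with a lower minimum.

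After arsenite, all 5 genes of the 9099 were called in WT and in RQ, and 4 in both phosphomimetic populations, where NFKBIA was the exception. Among them in every population were NFKBIZ and TNFAIP3, whose arsenite calls followed from the filter. The stress changed most of the transcriptome: the share of all tested genes that was called was 72.2% for WT, 72.9% for RQ, 65.3% for S181E and 65.8% for Y396E, so the counts of called genes are close to the background. What differed between the genes was the direction and the size. NFKBIZ and TNFAIP3 rose in all populations, NFKBIA in WT and RQ, and LIF and RELB fell in all. Of the 5 lower-expressed genes, 1 was called in WT (background 61.2%), 1 in RQ (61.9%), 1 in S181E (55.2%) and 2 in Y396E (57.9%). These counts turned on Y396E arsenite replicate 3: without it they were 4, 3, 4 and 2, where the background was 66.6%, 66.9%, 60.4% and 59.4%.

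NFKBIZ, the nuclear inhibitor-like factor, had the largest rise of the 10 genes in each population. In WT control cells it measured 1.59, 2.33 and 1.82 CPM, and in WT arsenite cells 23.3, 21.8 and 24.9 CPM. The groups were far apart, a 12.3-fold difference (log2 3.62 ± 0.18 SE, edgeR adjusted p = 3.82e-15). In RQ the level went from 1.92 ± 0.403 to 26.6 ± 1.86 CPM (SD, n = 3), in S181E from 1.77 ± 0.455 to 20.4 ± 3.04 and in Y396E from 2.28 ± 0.563 to 22.7 ± 3.72. The log2 changes were 3.79 ± 0.18 in RQ, 3.55 ± 0.18 in S181E and 3.32 ± 0.18 in Y396E. None of the mutant responses was called different from that of WT, and no mutant was called different from WT in control or in arsenite cells. The parental libraries held 53 counts of NFKBIZ (1.80 CPM) without arsenite and 983 (27.8 CPM) with it.

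TNFAIP3, the A20 gene, rose in all 4 populations, with lower estimates in the phosphomimetic ones. WT control libraries measured 3.43, 4.203 and 4.73 CPM and WT arsenite libraries 18.7, 15.6 and 17.7 CPM (log2 2.07 ± 0.17, edgeR adjusted p = 6.32e-11). RQ measured 3.60, 3.93 and 4.66 CPM in control and 14.3, 18.2 and 20.9 CPM in arsenite (log2 2.14 ± 0.17). S181E went from 5.30, 4.85 and 4.99 to 10.98, 13.9 and 15.0 CPM (log2 1.40 ± 0.17), and Y396E from 5.09, 6.38 and 5.60 to 11.8, 11.4 and 17.6 CPM (log2 1.26 ± 0.17). Every arsenite library lay above every control library in each population. The highest Y396E arsenite value belonged to replicate 3, and without it the Y396E change was 1.03 ± 0.14.

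The arsenite response of TNFAIP3 in Y396E was lower than that in WT by 0.81 ± 0.24 on the log2 scale (edgeR adjusted p = 0.0179). In S181E the difference was -0.67 ± 0.24 and missed the threshold (edgeR adjusted p = 0.0546), and without Y396E arsenite replicate 3 it was -0.66 ± 0.19 and passed (edgeR adjusted p = 0.0103). It passed in 6 of the 24 fits without 1 library, with values from -0.78 to -0.54 over all 24. It also passed in the DESeq2 Wald test (adjusted p = 0.047). In edgeR it passed with scaling by totals alone (adjusted p = 0.0306) and in a fit of the compared groups alone (adjusted p = 0.00862). With replicate number as a block in edgeR it was -0.69 and passed (adjusted p = 0.018). Without that library the Y396E difference was -1.04 ± 0.20. The RQ response was 0.07 ± 0.25 from that of WT. In control cells Y396E was above WT by 0.47 ± 0.19 (edgeR adjusted p = 0.0448), a call that was lost in 11 of 24 fits that left out 1 library, with its lowest value, 0.34, without WT control replicate 1. The lower Y396E response was not called without WT control replicate 1 (-0.69) or Y396E control replicate 2 (-0.73). Nor was it called in a fit of the compared groups alone (-0.81, edgeR adjusted p = 0.0536). In arsenite cells the differences from WT were -0.37 ± 0.16 in S181E and -0.34 ± 0.15 in Y396E (edgeR adjusted p = 0.0897 and 0.0839). Without replicate 3 of Y396E arsenite both were called, at -0.36 ± 0.11 and -0.57 ± 0.13. Both were also called with the replicate block, at -0.39 and -0.36 (edgeR adjusted p = 0.0308 and 0.0286).

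NFKBIA, the IκBα gene, rose in WT and RQ but not in the phosphomimetic populations. In WT it measured 34.3, 28.8 and 36.3 CPM in control and 54.0, 49.3 and 50.6 CPM in arsenite, a rise of 0.63 ± 0.08 on the log2 scale (edgeR adjusted p = 1.96e-07). In RQ it measured 28.0, 29.3 and 30.9 CPM in control and 44.98, 52.4 and 56.0 CPM in arsenite, a rise of 0.80 ± 0.08 (edgeR adjusted p = 3.74e-09). In both populations every arsenite library was above every control library. In S181E it measured 41.5, 43.3 and 41.9 CPM in control and 41.1, 43.7 and 40.5 CPM in arsenite, overlapping groups with a difference of -0.02 ± 0.08 (edgeR adjusted p = 0.844). Y396E libraries also overlapped, at 42.1, 35.8 and 42.3 CPM in control and 41.7, 45.8 and 43.3 CPM in arsenite (0.12 ± 0.08, edgeR adjusted p = 0.179).

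Tested directly, the NFKBIA response was below that of WT by 0.65 ± 0.12 in S181E and by 0.51 ± 0.12 in Y396E (edgeR adjusted p = 0.000844 and 0.00368), and that of RQ was 0.17 ± 0.12 above it (edgeR adjusted p = 0.999). The smaller responses went with a higher start and a lower end. In control cells NFKBIA was higher than WT by 0.35 ± 0.08 in S181E, with all 3 libraries above all 3 of WT, and by 0.27 ± 0.08 in Y396E, where the libraries overlapped (edgeR adjusted p = 0.00138 and 0.0103). In arsenite cells it was lower than WT by 0.30 ± 0.08 in S181E (edgeR adjusted p = 0.00951). The Y396E libraries in arsenite were also all below those of WT, but the change of -0.23 ± 0.08 was under the fold threshold (edgeR adjusted p = 0.029). In control cells without WT replicate 2, the lowest WT library, the S181E difference fell to 0.26 and that of Y396E to 0.19, and neither was called. The Y396E difference was also lost without Y396E control replicate 1 (0.24) or 3 (0.23), and the S181E difference in arsenite without WT arsenite replicate 1 (-0.26) or with scaling by totals alone (-0.25). In arsenite, Y396E was called without its replicate 2 (-0.27). The parental cells, with 53.9 CPM in control and 37.7 CPM in arsenite, went in the other direction from WT.

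RELB, the noncanonical subunit, fell after arsenite in each population. WT measured 39.7, 34.7 and 37.7 CPM in control and 22.2, 21.6 and 23.8 CPM in arsenite (log2 -0.73 ± 0.11, edgeR adjusted p = 2.33e-06). S181E fell further, from 38.5, 37.7 and 41.2 to 16.7, 14.3 and 17.5 CPM (log2 -1.27 ± 0.12). RQ went from 33.4 ± 1.16 to 22.6 ± 1.45 CPM (SD, n = 3; log2 -0.56 ± 0.11), a response not called different from that of WT (0.17 ± 0.16, edgeR adjusted p = 0.999). Control and arsenite libraries did not overlap in any population. In Y396E the arsenite libraries measured 17.0, 17.5 and 26.6 CPM, and the third of these, replicate 3, stood apart from its sisters.

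The RELB response in S181E differed from that in WT by -0.54 ± 0.16 (edgeR adjusted p = 0.0221), and it was not called without WT control replicate 2 (-0.49), S181E arsenite replicate 2 (-0.46), S181E control replicate 3 (-0.50) or WT arsenite replicate 3 (-0.50). In arsenite cells S181E was below WT by 0.48 ± 0.12, with no overlap (edgeR adjusted p = 0.00418), while in control cells the difference was 0.07 ± 0.11. In Y396E the response differed from that of WT by -0.06 ± 0.16. Without Y396E arsenite replicate 3, the Y396E fall grew from -0.79 ± 0.11 to -1.03 ± 0.08, the difference of responses became -0.29 ± 0.10 and the level in arsenite was below that of WT by 0.38 ± 0.08, and both were called (edgeR adjusted p = 0.0306 and 0.000318).

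BIRC3, the cIAP2 gene, was tested among the 12934 genes and fell in each population. WT measured 4.32, 5.33 and 4.66 CPM in control and 3.34, 3.03 and 3.58 CPM in arsenite (log2 -0.54 ± 0.18, edgeR adjusted p = 0.011). With libraries scaled by totals alone the WT fall was -0.36 and not called (edgeR adjusted p = 0.0898). S181E went from 6.38, 8.36 and 7.45 to 3.66, 3.95 and 4.46 CPM (log2 -0.90 ± 0.18) and Y396E from 7.18, 8.69 and 6.66 to 2.62, 4.74 and 4.15 CPM (log2 -0.98 ± 0.18). In control cells BIRC3 was above WT by 0.64 ± 0.18 in S181E and by 0.65 ± 0.18 in Y396E, each without overlap (edgeR adjusted p = 0.00558 and 0.00612). In arsenite cells neither was called different from WT, nor was either response. RQ was at 5.90 ± 0.631 CPM in control and 3.77 ± 0.434 in arsenite (SD, n = 3). The parental control library had 12.7 CPM, above all engineered ones.

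LIF, the cytokine gene, had the highest level of the 10 per length. WT control libraries measured 374, 364 and 362 CPM and WT arsenite libraries 159, 160 and 164 CPM, a 2.28-fold fall (log2 -1.19 ± 0.05, edgeR adjusted p = 1.46e-16). RQ fell from 446, 445 and 469 to 200, 205 and 225 CPM (log2 -1.11 ± 0.05). S181E fell from 284, 267 and 273 to 155, 157 and 161 CPM (log2 -0.80 ± 0.05), and Y396E from 265, 247 and 259 to 153, 149 and 171 CPM (log2 -0.71 ± 0.05). In order, the group means ran from RQ control through WT, S181E and Y396E control to RQ arsenite, and then to WT, S181E and Y396E arsenite. These last 3 groups overlapped, at 161, 158 and 157 CPM, and the S181E and Y396E control groups, at 275 and 257 CPM, did not overlap but were not called different. Every other neighbouring pair was without overlap.

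In control cells LIF was lower than WT by 0.42 ± 0.05 in S181E and by 0.51 ± 0.05 in Y396E, and higher by 0.31 ± 0.05 in RQ (edgeR adjusted p = 3.12e-07, 1.41e-08 and 0.000807). In arsenite cells only RQ was called, 0.39 ± 0.05 above WT (edgeR adjusted p = 1.75e-05), and S181E and Y396E were within 0.03 of WT. The fall after arsenite was therefore smaller than that of WT by 0.39 ± 0.07 in S181E and by 0.48 ± 0.07 in Y396E (edgeR adjusted p = 0.000854 and 6.83e-05), while that of RQ differed by 0.08 ± 0.07. When libraries were scaled by totals alone, the control differences of S181E and RQ were -0.26 and 0.25, under the fold threshold. Parental LIF stood at 254 CPM without arsenite and at 105 CPM with it.

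**Figure D2:**
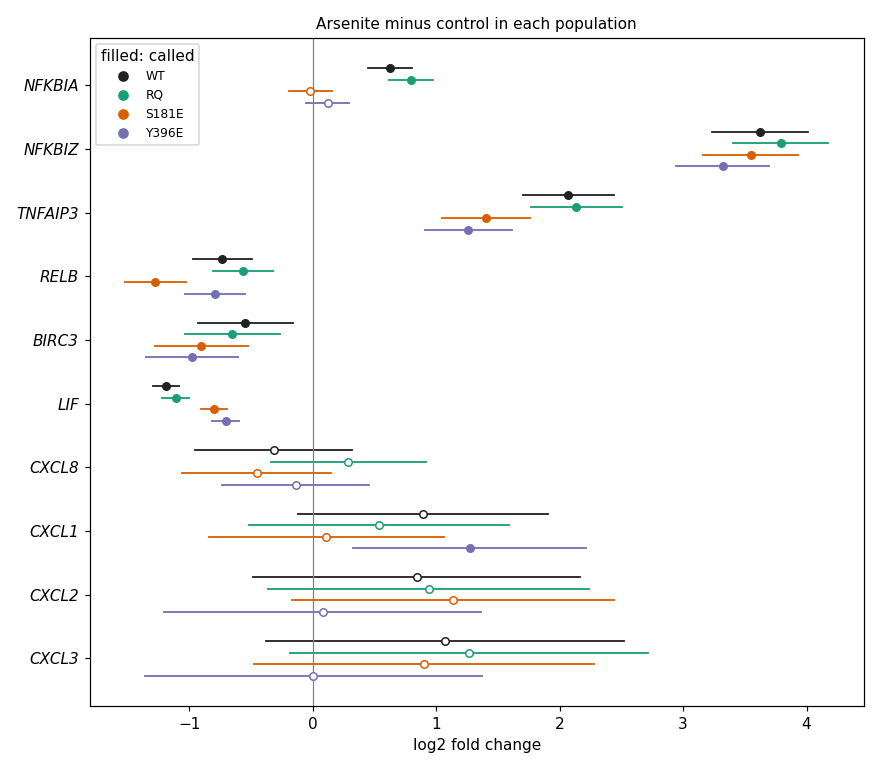
Arsenite minus control on the log2 scale for each gene in each population (colours), with 95% intervals, and filled points for called changes. NFKBIZ and TNFAIP3 lie to the right of 0 and RELB, BIRC3 and LIF to the left in all populations, while NFKBIA is at 0.63 in WT and 0.80 in RQ but at -0.02 in S181E and 0.12 in Y396E.

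The chemokines were low. CXCL8 had between 32 and 129 counts in the 24 libraries, CXCL1 between 9 and 172, CXCL2 between 0 and 73 and CXCL3 between 0 and 53. The library that stood apart held the extreme of all 4: it had 0 counts of CXCL2 and of CXCL3, 172 of CXCL1 and 129 of CXCL8. With 0 counts, the upper limit at this depth is 3 counts, which covers counting error only. Chemokine changes are therefore given with and without this library where it changed a call or moved the estimate.

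CXCL2, one of the neutrophil chemokines, measured 0.644, 0.583 and 0.392 CPM in WT control and 0.933, 1.03 and 0.999 CPM in WT arsenite libraries, with no overlap. With all libraries the WT change was 0.84 ± 0.62, that of RQ 0.94 ± 0.61, that of S181E 1.14 ± 0.62 and that of Y396E 0.08 ± 0.61, none of them called (edgeR adjusted p = 0.243, 0.182, 0.115 and 0.915). Without Y396E arsenite replicate 3 the WT estimate was the same, 0.84 ± 0.30, but the error was smaller and it was called (edgeR adjusted p = 0.0107). That refit gave 0.96 ± 0.28 in RQ, 1.16 ± 0.29 in S181E and 0.69 ± 0.29 in Y396E, all called. CXCL2 in RQ went from 0.504, 0.762 and 0.680 to 1.00, 1.22 and 1.52 CPM, and in S181E from 0.415, 0.634 and 0.593 to 1.09, 1.03 and 1.55 CPM, without overlap in either.

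CXCL3 behaved likewise in 3 of the populations. It measured 0.399, 0.416 and 0.285 CPM in WT control and 0.467, 1.197 and 0.657 CPM in WT arsenite, again without overlap. Without Y396E arsenite replicate 3 it was called in WT at 1.11 ± 0.36, in RQ at 1.29 ± 0.36 and in S181E at 0.88 ± 0.32, but not in Y396E at 0.58 ± 0.32 (edgeR adjusted p = 0.111). With all libraries none was called, at 1.07 ± 0.68, 1.26 ± 0.68, 0.90 ± 0.65 and 0.00 ± 0.64. In Y396E control libraries CXCL3 measured 0.794, 0.823 and 0.685 CPM, all above WT, a difference of 1.05 ± 0.69 that was not called with all libraries and was called without the library (1.04 ± 0.38, edgeR adjusted p = 0.0232).

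CXCL1 was called after arsenite only in Y396E with all libraries, at 1.27 ± 0.45 (edgeR adjusted p = 0.0153). Its Y396E arsenite libraries measured 1.43, 1.03 and 4.38 CPM against 1.19, 0.700 and 0.871 CPM in control. Without the third the change was 0.35 ± 0.32 and not called, so the call rested on 1 library. It was also lost without Y396E control replicate 2 (1.12). In WT it measured 0.859, 0.375 and 0.392 CPM in control and 0.972, 1.15 and 0.999 CPM in arsenite, which was called without the library (0.87 ± 0.33, edgeR adjusted p = 0.0185) but not with it. It was called at 1.41 when WT control replicate 1, the highest control library, was left out. S181E was the population with the smallest change, 0.11 ± 0.45, and it started at 0.925, 1.01 and 1.48 CPM in control, above all WT control libraries. That difference from WT, 1.06 ± 0.48, was not called (edgeR adjusted p = 0.0885), and was called without WT control replicate 1 (1.58) or Y396E arsenite replicate 3 (1.05). In arsenite cells Y396E differed from WT by 1.11 ± 0.44, which was not called (edgeR adjusted p = 0.0579). It was called without Y396E arsenite replicate 1 (1.34) or 2 (1.47), and was 0.19 without replicate 3.

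CXCL8, the interleukin-8 gene, was not called after arsenite in any population with all libraries. It measured 1.87, 1.66 and 1.21 CPM in WT control and 1.36, 0.928 and 1.60 CPM in WT arsenite, overlapping groups (log2 -0.32 ± 0.30). In S181E it measured 3.06, 3.25 and 2.45 CPM in control and 2.05, 2.57 and 1.93 CPM in arsenite, which also overlapped (-0.46 ± 0.28, edgeR adjusted p = 0.171) and was called without Y396E arsenite replicate 3 (-0.46 ± 0.21, edgeR adjusted p = 0.0456). In Y396E the change was -0.14 ± 0.28 with the library and -0.50 ± 0.24 without it, not called in either fit (edgeR adjusted p = 0.683 and 0.0573). In control cells S181E was above WT by 0.89 ± 0.29, with no overlap (edgeR adjusted p = 0.0181). That call was lost without S181E control replicate 1 (0.85) or 2 (0.81) or WT control replicate 3 (0.73). In Y396E the control difference was 0.62 ± 0.29 and not called (edgeR adjusted p = 0.11), and without Y396E arsenite replicate 3 it was 0.61 ± 0.22 and called (edgeR adjusted p = 0.0263). In arsenite cells S181E was above WT by 0.75 ± 0.29, not called with all libraries (edgeR adjusted p = 0.0834) and called without that library, at 0.75 ± 0.23 (edgeR adjusted p = 0.0115). The Y396E level in arsenite was above WT by 0.80 ± 0.29 (edgeR adjusted p = 0.0413), and by 0.43 ± 0.25 and not called without replicate 3. It was also not called without WT arsenite replicate 1 (0.83) or 2 (0.60), or S181E control replicate 1 (0.80). The parental libraries had 175 counts in control and 27 in arsenite, 5.95 and 0.764 CPM, the opposite ends of the CXCL8 range over all 26 libraries.

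**Figure D3:**
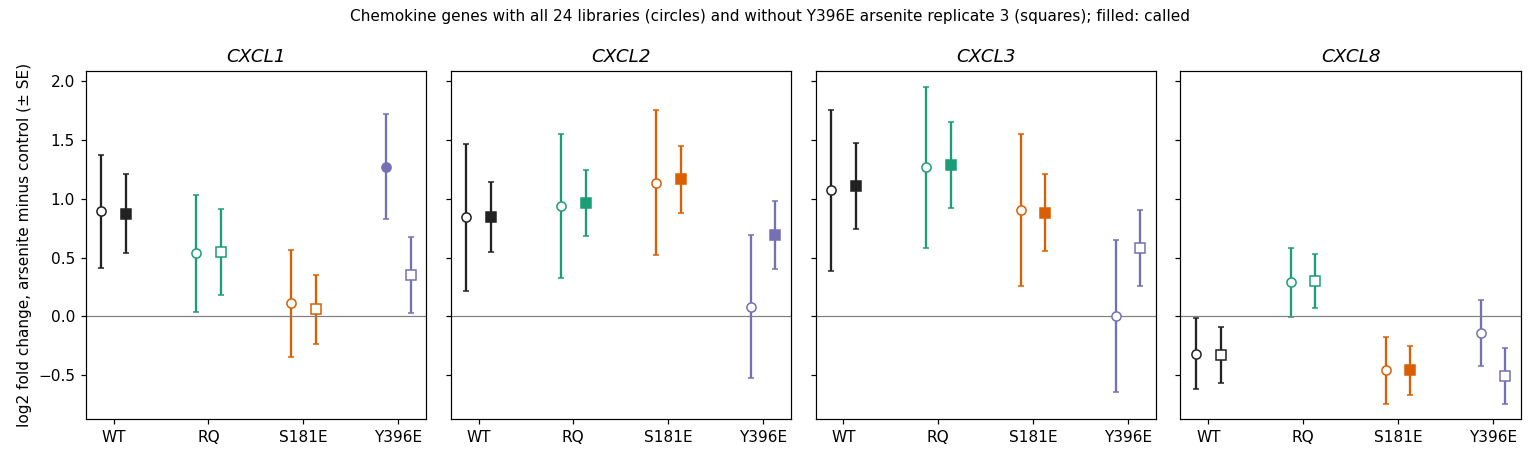
Arsenite minus control on the log2 scale, with SE, for the 4 chemokine genes in each population, from all 24 libraries (circles) and without Y396E arsenite replicate 3 (squares). Filled symbols are called. Estimates in WT, RQ and S181E barely move while their errors shrink, and those of all 4 genes in Y396E shift, for CXCL1 from 1.27 to 0.35 and for CXCL8 from -0.14 to -0.50.

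Against WT in control cells, 2 of the 5 genes tested among the 9099 were called in S181E (background 31.1%), 3 in Y396E (28.6%) and 1 in RQ (1.43%). In arsenite cells the counts were 2 in S181E (13.7%), 0 in Y396E (21.7%) and 1 in RQ (1.52%). For the count of 0, 2 of the 5 genes had an unadjusted p under 0.05 in edgeR and DESeq2 called 0. Without Y396E arsenite replicate 3 that comparison called 2, TNFAIP3 and RELB, where the background was 18.4%. For BIRC3 and the chemokines, the counts in control cells were 2 in S181E (25.6%), 1 in Y396E (23.6%) and 0 in RQ (0.982%), and in arsenite cells 0 in S181E (12.1%), 1 in Y396E (20.5%) and 0 in RQ (1.03%). Without Y396E arsenite replicate 3 the control counts became 3, 3 and 0, and the arsenite counts 1, 0 and 0. Of the zeros with all libraries, only that of S181E in arsenite held a gene with an unadjusted p under 0.05, 1 of 5. DESeq2 called 0 in all 3.

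Differences of arsenite responses from WT were called for 3 of the 5 genes in S181E (background 16.4%), 3 in Y396E (21.5%) and 0 in RQ (0.22%). For RQ, 0 of the 5 had an unadjusted p under 0.05 in edgeR and DESeq2 called 0. For BIRC3 and the chemokines no response was called different from WT in S181E (10.6%), Y396E (14%) or RQ (0.124%), with 0 of 5 at an unadjusted p under 0.05 in each and 0 called by DESeq2. The errors of the chemokine response differences ran from 0.41 to 0.97. The 3 mutants were compared with the same WT libraries, so these comparisons are not independent of each other. The genes were chosen with earlier results of these data known, so the counts here and above are no test against the background.

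**Figure D4:**
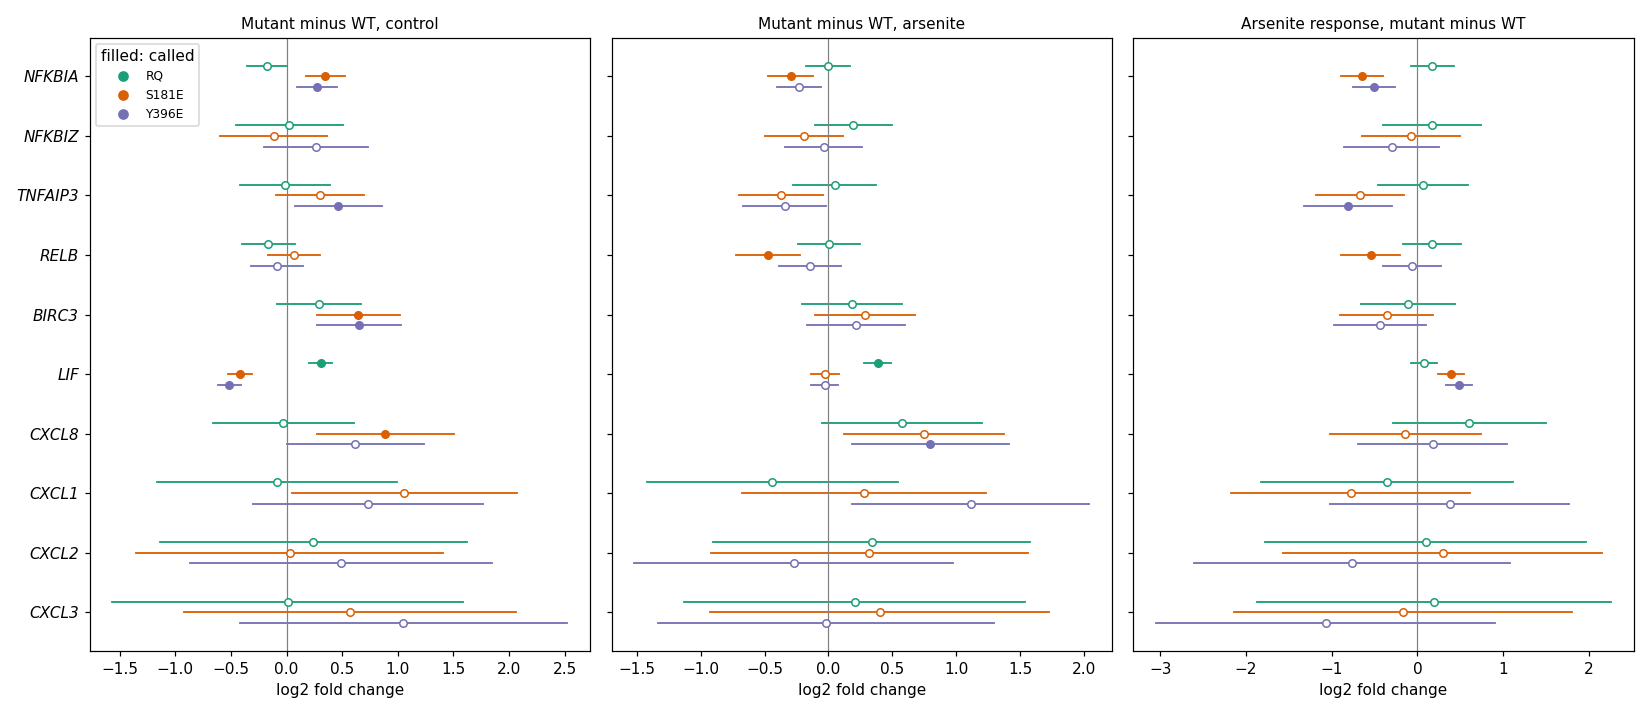
Mutant minus WT on the log2 scale for each gene, in control cells (left), in arsenite cells (middle) and as the difference of arsenite responses (right), with 95% intervals and filled points for called differences. LIF in S181E and Y396E lies at -0.42 and -0.51 in control and near 0 in arsenite, and NFKBIA in these mutants lies above 0 in control and below 0 in arsenite, where Y396E was not called.

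The S181E and Y396E populations were also compared directly. None of the 10 genes was called between them in either treatment, nor was any of the 9099 genes, against a background of 0%. Among the 5 genes tested among the 9099, 0 had an unadjusted p under 0.05 in control and 1 in arsenite, among BIRC3 and the chemokines 0 did in either treatment, and DESeq2 called none of the 10, although it called 1 gene in control and 9 genes in arsenite among all tested. The 1 gene was RELB in arsenite cells, 0.33 ± 0.12 higher in Y396E (edgeR adjusted p = 0.267). It was called without Y396E arsenite replicate 2, at 0.44 (edgeR adjusted p = 0.0342). Without Y396E arsenite replicate 3, the library that stood apart, the RELB difference was 0.09 ± 0.08 and not called (edgeR adjusted p = 0.977). The 95% interval of Y396E minus S181E was -0.20 to 0.01 for LIF and -0.25 to 0.10 for NFKBIA in control cells, and -0.11 to 0.10 for LIF and -0.11 to 0.24 for NFKBIA in arsenite cells. For CXCL2 and CXCL3 the intervals were over 2 log2 units wide.

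Other genes of the pathway were taken from a list of 68, of which 45 were tested. After arsenite in WT, 14 were higher and 16 lower, which is 66.7% beside the 72.2% of all tested genes, and their median change was -0.09 beside -0.01 for all genes. Among the subunits and inhibitors, 3 of 6 rose and 1 fell. NFKB2, which encodes the precursor of the p52 partner of RELB, went from 32.0 ± 2.77 to 109 ± 1.58 CPM (SD, n = 3; log2 1.76 ± 0.07, edgeR adjusted p = 1.29e-17). NFKBIE, another cytoplasmic inhibitor, rose by 0.93 ± 0.09 and NFKB1, which encodes the p50 precursor, by 0.85 ± 0.12. RELB thus fell where these 3 genes, named for the size of their changes, rose. BCL3, the gene of this sublist that fell, changed by -0.50 ± 0.07, in the direction of RELB.

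Of 19 tested kinases and adaptors, 5 rose and 6 fell in WT, among them the death-domain kinase gene RIPK1 (0.89 ± 0.07), TAB1 (0.78 ± 0.08) and the TNF receptor gene TNFRSF1A (-0.87 ± 0.07). Of 7 further brakes, 3 rose and 2 fell. ZC3H12A, which encodes a nuclease that degrades inflammatory mRNAs, rose by 1.01 ± 0.10, TAX1BP1, an A20 partner, by 1.01 ± 0.06, and OTULIN, a deubiquitinase, changed by -0.36 ± 0.09. Of 11 tested inducible targets, 3 rose and 6 fell, with a median of -1.02. SDC4, a cell-surface proteoglycan gene, went from 416 ± 26.6 to 107 ± 2.58 CPM (log2 -1.96 ± 0.06), the early response gene IER3 changed by -1.47 ± 0.07 and PLAU, the urokinase gene, by -1.36 ± 0.08. SDC4, IER3 and PLAU, named for the size of their changes, moved as LIF did, and not as NFKBIZ or TNFAIP3. The 3 targets that rose went the other way. IL6ST, the signalling receptor subunit for LIF, changed by -0.45 ± 0.09, and CXCR1 and CXCR2, the receptors of the chemokines, were not tested and reached at most 0.329 and 0.376 CPM.

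In S181E control cells against WT, 3 of the 45 were higher and 9 lower (26.7% beside 31.1% of all genes). PLAU differed by -1.21 ± 0.08, SHARPIN, a subunit of the linear ubiquitin ligase, by -0.74 ± 0.06, SDC4 by -0.56 ± 0.06, ZC3H12A by -0.50 ± 0.10 and TNFRSF1A by -0.45 ± 0.07. PLAU and SDC4 were lower together with LIF, while NFKBIA, BIRC3 and CXCL8 were higher. Many cytokine genes of the list, including TNF, IL6, IL1A, IL1B, CCL2, CCL20 and CXCL10, were not tested and none of these exceeded 1.87 CPM in any library.

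Across the 24 libraries, the gene whose log2 CPM followed NFKBIZ most closely was EGR2 (Pearson's r = 0.994), and for TNFAIP3 it was NAMPT (0.986). For RELB it was MINDY2 (0.966) and for NFKBIA SDE2 (0.923). These are descriptions over libraries that share 8 group means, most of all the arsenite step. IGF2BP1 itself, the transgene, lay between 10.6 and 20.4 CPM in control and between 27.9 and 48.0 CPM in arsenite libraries, and at 0.340 and 0.651 CPM in the parental ones. Its mean was lowest in WT in both treatments, although in control cells RQ (15.3, 12.2 and 15.6 CPM) overlapped WT (10.9, 10.6 and 14.7 CPM). These are RNA levels, and the study gated the populations by mCherry signal to obtain comparable expression. Neither a difference in transgene RNA nor its part in the differences above was tested.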

How the data were processed

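The authors aligned single reads to hg38 with STAR 2.7.11b and, per the file headers, counted reads per gene with featureCounts 2.0.6 against GENCODE 46 with strand setting 2. The deposited values are whole-number counts, not normalized. Symbols came from GENCODE 44, which matched 62541 of 63086 identifiers (99.1%). Groups and replicate numbers came from the sample labels. The 10 genes and the pathway and marker lists were chosen with earlier results of these data known. Named pathway genes are, per sublist, the called genes with the largest changes after arsenite in WT (at most 3) and between S181E and WT in control cells (at most 2). BCL3 was named in addition. For each gene of the first gene set, the gene with the most similar pattern over the 24 libraries was also named, and 1 of these is not reported here. The motif was chosen after the promoters were read.

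Counts were scaled by TMM (factors 0.865 to 1.086) and fitted in edgeR 4.0.16 under R 4.3.3 (glmQLFit, glmQLFTest), with 1 mean for each of the 8 groups, 24 libraries and 16 residual degrees of freedom. Parental libraries stayed out of the fit. The first gene set held the 9099 protein-coding genes with more than 10 CPM in at least 12 libraries. The second held 12934 protein-coding genes that passed filterByExpr, and was used for BIRC3 and the chemokines. P-values were adjusted by Benjamini-Hochberg. The SE is the size of the log2 change divided by the square root of F. The procedure was tested on simulated data. Replicates were separately plated dishes of a population, so p-values measure the spread between dishes. No libraries held identical counts. Intervals of log2 changes were built from the SE, so they too measure the spread between dishes. Limits of 0 counts cover counting error only. Alternatives were DESeq2 1.42.0 and its size factors, no TMM factors, wider gene filters and gene types, fits to the compared groups alone, a replicate block, no or a larger fold threshold, and the omission of each library. RNA immunoprecipitation libraries were not used here.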

Additional observations from a re-analysis of the deposited data

Results flagged for a closer look

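The arsenite response differed from that of WT, tested as an interaction in edgeR with Benjamini-Hochberg adjustment, for 6 gene and mutant pairs. NFKBIA responded less in S181E (-0.65 ± 0.12 on the log2 scale, adjusted p = 0.000844) and in Y396E (-0.51 ± 0.12, adjusted p = 0.00368). LIF fell less in S181E (0.39 ± 0.07, adjusted p = 0.000854) and in Y396E (0.48 ± 0.07, adjusted p = 6.83e-05). RELB fell further in S181E (-0.54 ± 0.16, adjusted p = 0.0221). TNFAIP3 rose less in Y396E (-0.81 ± 0.24, adjusted p = 0.0179). Of the 24 fits without 1 library, 4 lost the RELB call and 2 the TNFAIP3 call. Without Y396E arsenite replicate 3, TNFAIP3 in S181E (-0.66 ± 0.19, adjusted p = 0.0103) and RELB in Y396E (-0.29 ± 0.10, adjusted p = 0.0306) were called too.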

How the results depend on the processing

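In the 9099-gene set, 18 calls after arsenite, 9 of mutant against WT, 6 of responses and 0 between S181E and Y396E were made, beside 9 for BIRC3 and the chemokines and 190 for other pathway genes. Leaving out 1 library at a time gave 18 to 18, 6 to 12, 5 to 8, 0 to 1, 7 to 20 and 179 to 200. The 18 arsenite calls include NFKBIZ and TNFAIP3 in every population, which passed the filter only through their arsenite libraries. The highest count of 20 came without Y396E arsenite replicate 3. The 1 call between S181E and Y396E was RELB in arsenite without Y396E arsenite replicate 2, a difference that was 0.09 without replicate 3. Fitting only the groups compared gave 18 for BIRC3 and the chemokines. A fold above 2 gave 11 after arsenite, 0 for mutant against WT, 0 for responses, 1 for BIRC3 and the chemokines and 30 for the pathway. Scaling by totals alone shifted the median of all genes by 0.16 for arsenite in WT and by 0.158 for S181E against WT in control, where 83.6% of calls were then higher against 50.4% with TMM. For arsenite in WT the split was 61.6% against 50.3%. For the response of S181E it was 13% against 42.6%, and for that of Y396E 18.2% against 48.1%, with shifts of -0.113 and -0.103. No called member change reversed under the alternatives run. The labels tie replicate numbers to no shared batch, and the main fit did not use the numbers as pairs. With group means removed, same-numbered libraries of different groups correlated between -0.05 and 0.53 (mean 0.09), with 22 of 84 pairs over 0.1. Of the different-numbered pairs, 6 of 168 were over 0.1 (mean -0.045). Removing group means makes these pairs offset the same-numbered ones, so they add no separate evidence. The same-numbered pairs thus showed some structure by replicate number, and 23 of 24 libraries were closest on average to their own number. With the replicate block the counts were 18, 11, 7, 0, 8 and 192. TNFAIP3 in S181E arsenite (-0.39), in Y396E arsenite (-0.36) and in the S181E response (-0.69) then passed, and CXCL8 in Y396E arsenite missed (adjusted p = 0.0503). The cause of these changes was not tested. Depth limits CXCL1, CXCL2 and CXCL3, with medians of 28, 22 and 20.5 counts.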
